A study of Mus musculus with 2 samples.

Results

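The genes described here are 10 regulators and components of the actin cytoskeleton that act when an oligodendrocyte wraps an axon: Gsn, Cfl1, Cfl2, Arpc3, Wasf1, Cdc42, Rac1, Rhoa, Cdc42ep2 and Actb. They were taken by gene name from the deposited table, where all 10 of the names were found among 51826 genes, and the table of transcripts lists 46 transcripts for them among 128622. The tissue was spinal cord, from C57BL/6 mice aged 7 days after birth. The wild-type (WT) group and the conditional knockout (cKO) group, labelled Olig1-Cre;Secisbp2l-floxed(Ex3), had 1 library each. Olig1-Cre acts in the oligodendrocyte lineage, so exon 3 of Secisbp2l is targeted in those cells while the RNA is that of the whole cord. How many animals a library pools, and whether WT animals carried Cre or floxed alleles, the labels leave unstated.

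An oligodendrocyte first pushes out processes by assembling branched actin filaments. In that step Rac1 and Cdc42 switch on the WAVE and WASP complexes, which start the Arp2/3 complex. Wrapping then needs filaments to be taken apart in the inner tongue of the sheath, which is the work of the cofilins and of gelsolin, and myelin basic protein is known to free both from the membrane lipid that holds them inactive.

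With 1 library per group no difference has a replicate check, so no p-value is given. Levels of different genes are compared as the authors' TPM (the share of a library's transcripts, scaled to 1000000, which allows for gene length). Differences are log2 ratios of cKO over WT from the deposited counts of a gene per 1000000 counts of the library (CPM), scaled with TMM factors, and their 95% exact (Clopper-Pearson) intervals cover counting error only. Genes with a mean CPM of 1 or more over the libraries count as measured. They were called lower or higher where the libraries differed by 1.5-fold or more and a ratio of 1 lay outside the interval. The libraries held 42875143 (WT) and 55179026 (cKO) counts, about 2 to a sequenced fragment. The median log2 ratio of the 15917 measured genes was 0.01, with quartiles of -0.14 and 0.15. Secisbp2l itself stood at 588 (WT) and 466 CPM (cKO), and its whole-gene value does not isolate the targeted exon. Xist had 35182 counts in WT and 13 in cKO, and 4 Y-linked genes had 0 counts in WT and 1081 to 4280 in cKO, so genotype and the sex-linked difference cannot be told apart. All 10 genes are autosomal.

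Sequences of the genes are shown first, because transcripts of Gsn, Cdc42 and Rac1 that differ in the letters below had different ratios or shares. For Gsn, the 250 bases before the annotated start used by transcript Gsn-201 and before the start nearest to that of Gsn-205 are given from RefSeq (GRCm38.p6, plus strand), at chr2:35282130-35282379 and chr2:35256109-35256358. Capitals mark GC boxes (GGGCGG) and CCAAT boxes (CCAAT), searched on both strands.
Gsn downstream start: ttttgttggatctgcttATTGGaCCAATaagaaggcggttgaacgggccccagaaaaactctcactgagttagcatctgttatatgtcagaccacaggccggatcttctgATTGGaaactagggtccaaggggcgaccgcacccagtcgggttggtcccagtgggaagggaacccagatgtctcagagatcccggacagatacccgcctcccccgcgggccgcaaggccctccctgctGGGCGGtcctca
Gsn upstream start: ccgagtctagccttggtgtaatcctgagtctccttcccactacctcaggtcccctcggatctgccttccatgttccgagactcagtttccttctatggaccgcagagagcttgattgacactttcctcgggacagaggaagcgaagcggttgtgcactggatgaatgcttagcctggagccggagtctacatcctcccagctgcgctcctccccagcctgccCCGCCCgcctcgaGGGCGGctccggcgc
The window before the downstream start held 3 CCAAT boxes and 1 GC box, and the window before the upstream start held 0 and 2. Another RefSeq start of Gsn lies between them, and its window (chr2:35266494-35266743, not shown) held 1 and 1. Of 32851 RefSeq windows of this length, 33.8% held a CCAAT box and 32.7% a GC box. These are matches of letters, and no binding was measured.

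The 3 GTPases end in a short signal to which a lipid anchor is attached. Cdc42 has 2 alternative last coding exons, and the transcripts share their first 487 coding bases of 573. Below are the last 30 coding bases before the stop codon in the GENCODE M21 transcripts, with the last 4 codons, the lipid attachment signal, in capitals.
Cdc42-201: actcaacccaaaaggaagTGCTGTATATTC
Cdc42-202: ccgaagaagagccgcaggTGTGTGCTGCTA
Rac1-201: aagaagaggaagagaaaaTGCCTGCTGTTG
Rhoa-201: gggaagaaaaagtctgggTGCCTCATCTTG
The tail of Cdc42-201 lies at chr4:137322533-137322562 and that of Cdc42-202 at chr4:137321106-137321135, both on the minus strand. Cdc42-201 encodes the ending known from brain, which can also be palmitoylated, and Cdc42-202 the ending found in most tissues.

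Rac1-202 carries a coding exon of 57 bases that Rac1-201 lacks, at chr5:143509597-143509653 on the minus strand. It is printed in capitals with 12 coding bases on each side. The protein made with it is known as Rac1b, a form that exchanges its nucleotide faster than Rac1.
Rac1-202 exon: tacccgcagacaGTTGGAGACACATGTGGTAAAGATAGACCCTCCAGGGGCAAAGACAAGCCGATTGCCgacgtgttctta

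The cofilins carry a serine directly after the first alanine, which LIM kinases phosphorylate to switch the proteins off. The first 30 coding bases are given with that codon in capitals.
Cfl1-202: atggccTCTggtgtggctgtctctgatggt
Cfl2-201: atggcaTCTggagttacagtgaatgatgaa
Cfl1-202 is a minor transcript of the gene, shown because its 498 coding bases match Cfl2-201 in length. They are also the first 498 of the 681 annotated coding bases of Cfl1-201, the main transcript. Cfl1-202 and Cfl2-201 are 71.9% identical over these bases.

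Gsn was the gene of the 10 that differed by the size rule, and it was lower in the cKO library. The RNA is that of all cells of the cord, and in such bulk RNA fewer cells of a type and less RNA per cell cannot be told apart. Across the transcriptome 3.43% of measured genes were called lower and 2.44% higher. Of the 10 genes, 1 was called lower and 0 higher. The other 9 lay between -0.24 and 0.09 on the log2 scale, and the median of all 10 was -0.11. At a smaller step, a log2 ratio of 0.32 in size, the counts over the 10 were again 1 lower and 0 higher, where 7.86% and 6.2% of measured genes were called. At 2-fold 0 were called in either direction, where 1.15% and 0.817% were. Counting intervals lay wholly below 0 for 7 of the 10, above 0 for 0 and included 0 for 3, where 18.4% of measured genes lay wholly below 0 and 21.9% above. At this depth such intervals leave out 0 for small differences too. In the plot of levels by library, the WT and cKO points of Gsn stand apart while those of Cfl1, Cfl2 and Wasf1 lie on each other.

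**Figure D1:**
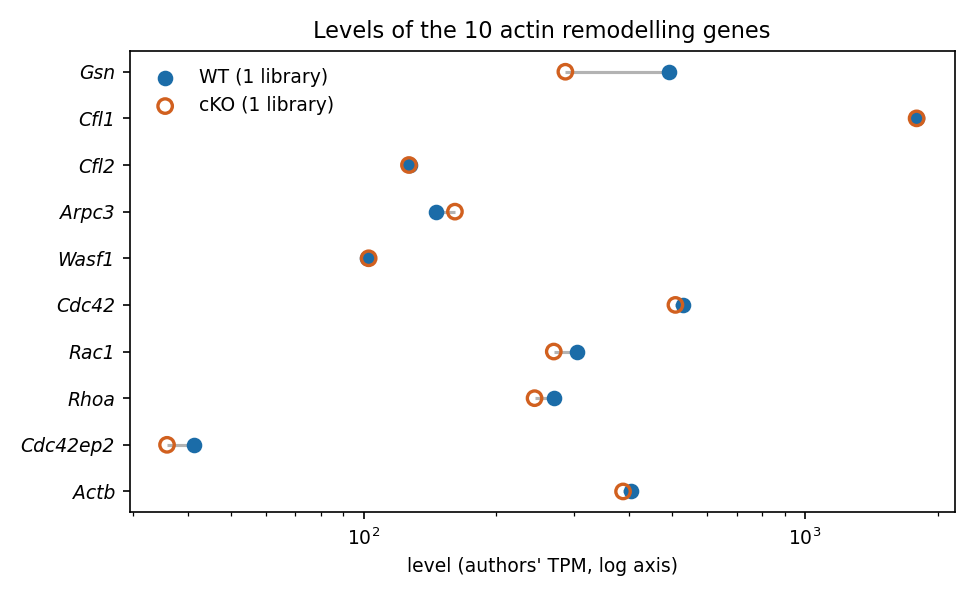
Level of each gene in the authors' TPM on a log axis, with a filled point for the WT library and an open ring for the cKO library. Gsn goes from 491 to 287 TPM, and the points of Cfl1, Cfl2 and Wasf1 coincide.

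**Figure D2:**
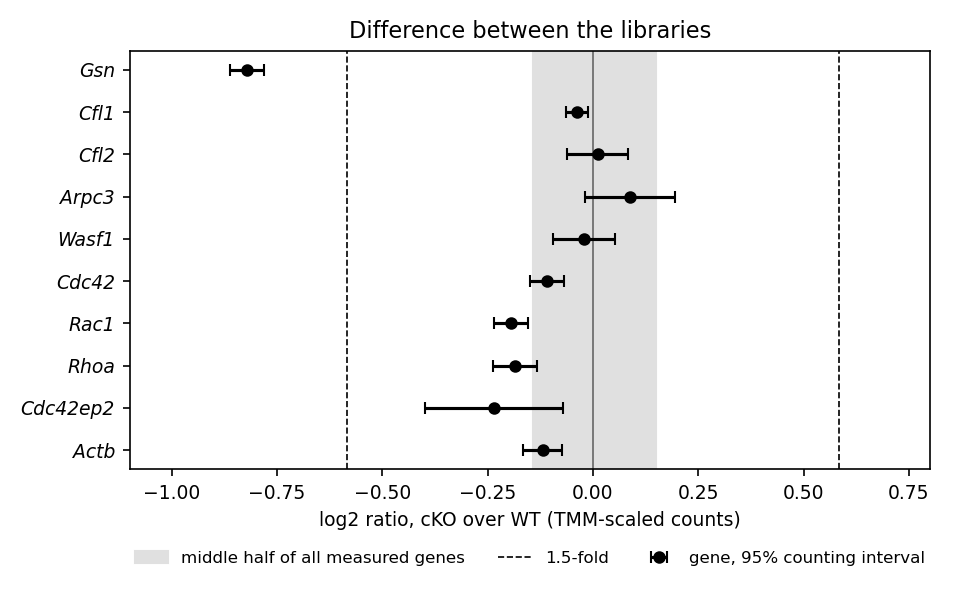
Log2 ratio of cKO over WT for each gene from TMM-scaled counts, with 95% counting intervals. The grey band spans the quartiles of all measured genes (-0.14 to 0.15) and dashed lines mark 1.5-fold; Gsn at -0.82 is the only point outside the dashed lines.

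Levels ran over a wide range. By TPM in WT, Cfl1 was the most abundant of the 10 at 1796 TPM, and 32 measured genes had a higher TPM. It was followed by Cdc42 (528 TPM), Gsn (491 TPM), Actb (403 TPM), Rac1 (305 TPM), Rhoa (270 TPM), Arpc3 (146 TPM), Cfl2 (128 TPM), Wasf1 (102 TPM) and Cdc42ep2 (41.2 TPM). In cKO the order was the same except that Gsn stood below Actb. With 1 library per group there is no spread against which neighbours in this order could be compared.

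Filament disassembly is the role of Gsn, Cfl1 and Cfl2. Gsn (ENSMUSG00000026879, chromosome 2, 35256380 to 35307892, plus strand) encodes gelsolin, which cuts filaments and caps their fast-growing end when calcium rises. It stood at 491 TPM in WT and 287 TPM in cKO, on 23867 and 17368 counts. The log2 ratio was -0.82 (interval -0.86 to -0.78), or 1.77-fold lower in cKO, and 291 of the 15917 measured genes had a lower ratio. No gene with counts shares its exons or overlaps them on the other strand. The difference between the ratio of Gsn and that of each of the other 9 genes ran from -0.91 against Arpc3 (normal-approximation interval -1.02 to -0.80) to -0.58 against Cdc42ep2 (-0.75 to -0.42), and every interval was below 0.

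Gelsolin has forms that begin at different start sites. Gsn-201, of 17 exons and 2340 coding bases, begins at the downstream start shown above and carries the longest reading frame, that of the secreted form. It was estimated at 394 TPM in WT and 224 TPM in cKO, with a log2 ratio of -0.85 (interval -0.89 to -0.81). Gsn-205, with the 2193 coding bases of the cytoplasmic form, begins near the upstream start and stood at 38.3 and 26.5 TPM, with a ratio of -0.57 (-0.70 to -0.43). Gsn-207, which shares the first 2 exons of Gsn-205 apart from its first few bases, stood at 51.3 and 29.9 TPM (-0.81, -0.96 to -0.67). All 3 were lower in cKO.

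As a share of Gsn counts, Gsn-201 stood at 83.7% (WT; 95% Wilson interval 83.0% to 84.3%) and 82.0% (cKO; 81.1% to 82.8%). The share of Gsn-205 was 7.98% in WT (7.50% to 8.48%) and 9.52% in cKO (8.92% to 10.2%). These counting intervals did not overlap between the libraries. At this depth small differences can give that too, and no share over all transcripts is at hand for comparison. The 3 transcripts share most of their exons and differ at the 5′ end, where Gsn-207 has an exon of its own, and Gsn-207 also ends earlier, so the division between them is the authors' estimate.

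Oligodendrocyte markers were lower in the same library as Gsn. Of 15 markers 14 were called lower and 0 higher, with ratios from -1.66 to -0.56 and a median of -0.93, and they summed to 18527 (WT) and 9033 CPM (cKO). Mbp and Mobp, for proteins of compact myelin, were at -0.89 and -1.24. The ratio of Gsn lay inside this range, with 9 markers below it and 6 above, and the other 9 actin genes lay above the whole range.

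Gsn is also made outside the oligodendrocyte, among others by fibroblasts. Meninges and fibroblast markers had 1 of 6 called lower, a median of -0.25 and summed levels of 3327 and 2986 CPM. Schwann cell markers had 1 of 5 called lower and a median of 0.13, with summed levels of 972 and 1066 CPM. Medians were -0.12 for precursor, -0.06 for astrocyte, 0.13 for neuron, -0.07 for microglia and 0.11 for endothelial and pericyte markers, with 0 called in each. Of the 6 skeletal muscle genes 4 were measured and 1 was called lower, on summed levels of 14.5 and 16.4 CPM. No marker of any list was at 0 in a library. The part of these cell types in the values of the 10 genes was not tested.

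**Figure D3:**
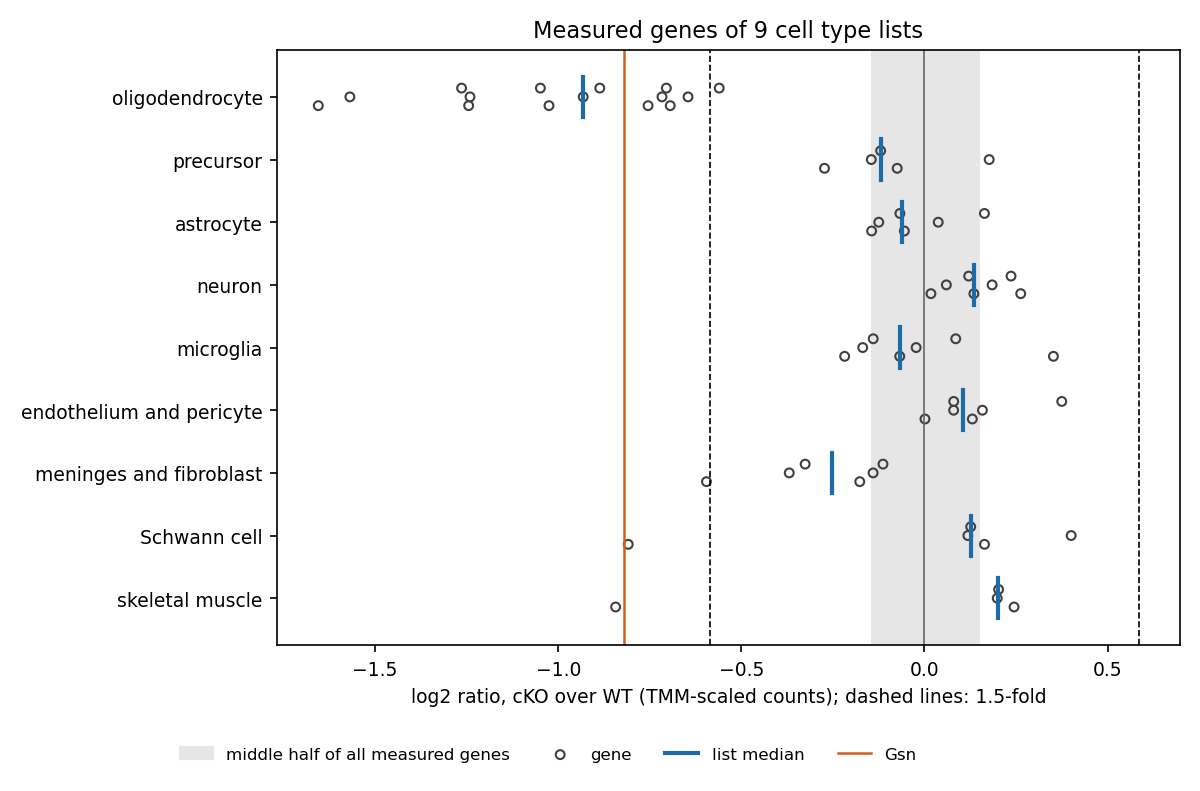
Log2 ratio of cKO over WT for each measured gene of 9 cell type marker lists, 1 row per list, with the list median as a bar, the quartiles of all measured genes in grey, dashed lines at 1.5-fold and the ratio of Gsn (-0.82) as a vertical line. The Gsn line runs through the oligodendrocyte markers, whose median is -0.93.

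Cfl1 (ENSMUSG00000056201, chromosome 19, 5490455 to 5495201, plus strand) encodes cofilin 1, the main severing protein of non-muscle cells. It stood at 1796 TPM in WT and 1790 TPM in cKO, with a log2 ratio of -0.04 (interval -0.07 to -0.01). Cfl2 (ENSMUSG00000062929, chromosome 12, 54858809 to 54862877, minus strand), for the cofilin of muscle that other cells also make, stood at 128 and 127 TPM (0.01, -0.06 to 0.08). The ratios of the cofilin genes differed by -0.05 (normal-approximation interval -0.13 to 0.03). The cofilin family was taken as Cfl1, Cfl2 and destrin (Dstn, 268 and 234 TPM). Of its summed TPM, Cfl1 alone made up 81.9% in WT and 83.2% in cKO, Cfl2 5.83% and 5.89%, and Dstn 12.2% and 10.9%. The level of the most abundant severing gene was thus nearly the same in these libraries while that of gelsolin was not.

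Transcript Cfl1-201 held 98.3% and 98.0% of the Cfl1 counts. For Cfl2, the coding transcript Cfl2-201 took 86.9% in WT and 88.5% in cKO. The retained-intron transcript Cfl2-205 took 5.22% and 5.79%. By transcript TPM, which allows for length, Cfl2-201 held less, 66.4% in WT and 70.4% in cKO, and Cfl2-205 held 10.1% and 11.7%. Snx32 overlaps Cfl1 on the other strand with 1849 and 2335 counts, and the strand setting of the counting is not given.

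The other genes of filament disassembly were examined from 2 lists. In the gelsolin family list, 5 of 8 genes were measured and Gsn was the 1 called lower, with 0 higher. Its 4 other measured members lay between 0.08 (Flii, the most abundant of them, 64.3 and 67.9 CPM) and 0.26 (Vill, 3.22 and 3.86 CPM). Llgl1 overlaps Flii on the other strand with 8181 (WT) and 8441 (cKO) counts, beside 2759 and 3747 for Flii. Svil, which encodes supervillin, had a log2 ratio of 0.23 on counts. By the authors' TPM plus 0.1 it was at 0.70, past 1.5-fold. Gsn made up 88.6% of the family's TPM in WT and 78.7% in cKO. In the list of cofilins and their regulators, 0 of 13 measured genes were called. Dstn had the lowest ratio, -0.23, and Limk1, which encodes LIM kinase 1, the highest, 0.34 (78.9 and 102 TPM; interval 0.27 to 0.41).

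Nucleation of branched filaments is the role of Arpc3 and Wasf1. Arpc3 (ENSMUSG00000029465, chromosome 5, 122391878 to 122414184, plus strand) encodes a subunit of the Arp2/3 complex whose deletion is a standard way of disabling the complex in oligodendrocytes. It stood at 146 TPM in WT and 161 TPM in cKO, the highest ratio of the 10 genes at 0.09, with an interval that includes 0 (-0.02 to 0.19). Its main coding transcript Arpc3-202 took 98.2% (WT) and 95.8% (cKO) of Arpc3 counts, with a ratio of 0.05. Part of the remainder was Arpc3-208, chosen after its values were seen, with 15 counts in WT and 114 in cKO.

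Wasf1 (ENSMUSG00000019831, chromosome 10, 40883475 to 40938570, plus strand) encodes WAVE1, the scaffold through which Rac1 starts the Arp2/3 complex. It stood at 102 TPM in WT and 103 TPM in cKO (log2 ratio -0.02, interval -0.10 to 0.05). Wasf1-201 and Wasf1-202 carry the same 1677 coding bases behind different first exons. Wasf1-202 stood at 82.3 and 87.2 TPM (0.05, -0.03 to 0.13), and Wasf1-201 at 19.6 and 15.5 TPM (-0.37, -0.55 to -0.18). The share of Wasf1-201 was 18.6% in WT (17.1% to 20.1%) and 14.6% in cKO (13.4% to 15.8%). These intervals did not overlap either, again without a share over all transcripts for comparison. With the coding bases shared, the division between these transcripts is the authors' estimate, and the intervals leave out its error. Wasf1 held 51.7% of the TPM of the 3 Wasf genes in WT and 52.1% in cKO, followed by Wasf3 with 34.7% and 36.0%.

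Among the 10 Arp2/3 genes, all measured, 0 were called and the median ratio was -0.06. Actr2 (182 and 180 TPM), for a core subunit, was at -0.06. Actr3, for the other actin-like subunit, had the lowest ratio, -0.46 (144 and 109 TPM; interval -0.53 to -0.38), and Arpc4, which shares exons with Ttll3, the highest, 0.28 (74.7 and 95.4 TPM). Of the 16 WAVE and WASP genes, 1 was called lower and 0 higher, with a median of -0.07. That gene was Abi2, a subunit of the WAVE complex, at 44.8 TPM in WT and 36.7 TPM in cKO. Its ratio was -0.67 on counts. By the authors' TPM plus 0.1 it was -0.29, short of 1.5-fold. Cyfip2, which links Rac1 to the WAVE complex, was the most abundant of the list by CPM and had its highest ratio, 0.11.

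The GTPases Cdc42, Rac1 and Rhoa switch these machines on and off. Cdc42 (ENSMUSG00000006699, chromosome 4, 137319696 to 137357720, minus strand), which drives process formation, stood at 528 TPM in WT and 509 TPM in cKO (log2 ratio -0.11, interval -0.15 to -0.07). Rac1 (ENSMUSG00000001847, chromosome 5, 143503634 to 143528036, minus strand), which drives sheet-like protrusions, stood at 305 and 270 TPM (-0.19, -0.24 to -0.15). Rhoa (ENSMUSG00000007815, chromosome 9, 108306129 to 108337934, plus strand), which acts through ROCK kinases and myosin to contract actin and holds back process extension, stood at 270 and 244 TPM (-0.18, -0.24 to -0.13). All 3 were lower in cKO by less than that smaller step. The ratios of Rac1 and Rhoa differed by -0.01 (normal-approximation interval -0.08 to 0.06), and that of Cdc42 was higher than that of Rac1 by 0.08 (0.03 to 0.14). Daglb overlaps Rac1 on the other strand with 1132 and 1431 counts, and Tcta and Gm37401 overlap Rhoa with 1629 and 1969 counts in sum.

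The Cdc42 transcripts with different endings did not have the same ratio. Cdc42-202, with the ending of most tissues, stood at 311 TPM in WT and 280 TPM in cKO (log2 ratio -0.19, interval -0.24 to -0.14). Cdc42-201, with the brain ending, stood at 217 and 229 TPM (0.04, -0.03 to 0.11). Of all Cdc42 counts the brain form took 32.4% in WT (31.4% to 33.3%) and 35.9% in cKO (35.1% to 36.8%). By TPM, which allows for the shorter transcript, it held 41.1% and 45.0%. The share was higher in cKO on either scale. Both scales rest on the same estimated counts, so their shared direction is no separate check. Each transcript has a long last exon of its own, so many reads belong to 1 of them alone.

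For Rac1, the transcript with the exon of 57 bases had the lower ratio. Rac1-202 stood at 160 TPM in WT and 136 TPM in cKO (log2 ratio -0.27, interval -0.34 to -0.21) and Rac1-201 at 144 and 133 TPM (-0.15, -0.20 to -0.10). The share of Rac1-202 was 38.2% of counts in WT (37.2% to 39.2%) and 36.2% in cKO (35.3% to 37.1%). Rac1-201 also runs farther downstream at its 3′ end than Rac1-202. The values are therefore not a measure of how often the exon is included. Rhoa-201 held 99.2% and 99.3% of the Rhoa counts.

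**Figure D4:**
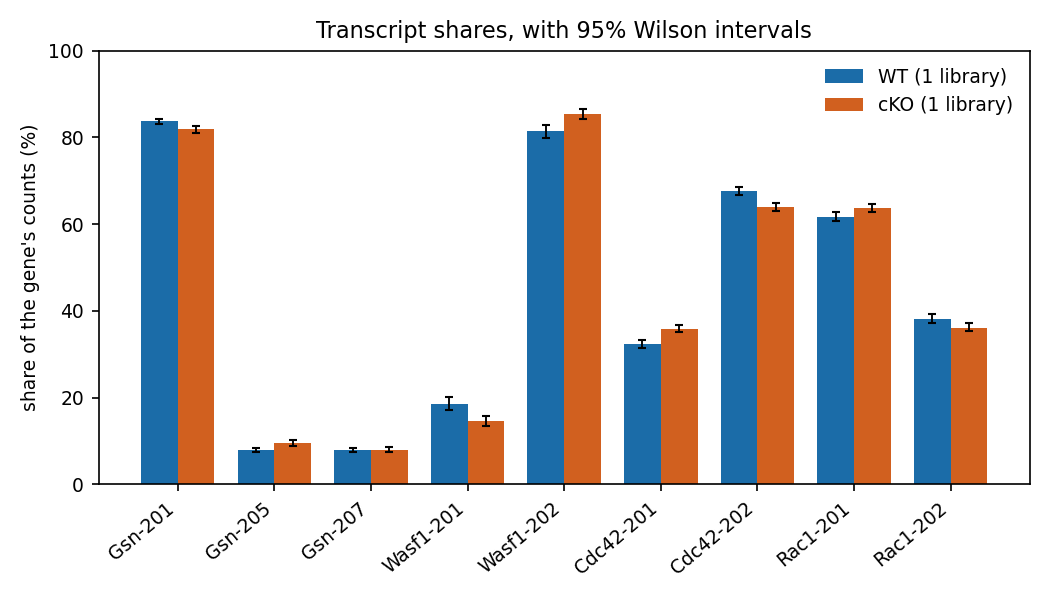
Share of the gene's counts held by the named transcripts of Gsn, Wasf1, Cdc42 and Rac1 in each library, with 95% Wilson intervals on fragments. Cdc42-201 goes from 32.4% in WT to 35.9% in cKO, and Wasf1-201 from 18.6% to 14.6%.

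Of the 15 GTPase genes in the list of this family, all measured, 1 was called lower and 0 higher, and the median was -0.18. The called gene was Rac2, the Rac of blood cells, at 3.85 and 2.51 TPM on 224 and 184 counts (-0.65, interval -1.06 to -0.24). By the authors' TPM plus 1 the ratio was -0.46, short of the rule. Rhob (276 and 260 TPM) was at -0.12, and Rhov had the highest ratio, 0.53 (23.8 and 35.1 TPM). Rac1 held 59.6% of the TPM of the 3 Rac genes in WT and 53.9% in cKO, beside Rac3 with 39.6% and 45.6%. The genes for exchange factors, GTPase activating proteins and dissociation inhibitors gave 0 calls among 22, with a median of 0.10, a lowest ratio of -0.56 for Arhgef10 and a highest of 0.29 for Vav2. Arhgdia, the most abundant there and the inhibitor that keeps such GTPases in the cytosol, was at -0.07.

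Cdc42ep2 (ENSMUSG00000045664, chromosome 19, 5917556 to 5924816, minus strand) encodes an effector that binds active Cdc42 and organises actin and septins. It was the least abundant of the 10 genes, at 41.2 TPM in WT and 35.9 TPM in cKO on 1180 and 1288 counts. The ratio of -0.24 was the lowest after Gsn, with the widest interval of the 10 (-0.40 to -0.07). It differed from that of Cdc42 by -0.13 (normal-approximation interval -0.29 to 0.04). Among the 4 Cdc42ep genes found, Cdc42ep2 held 32.5% of the TPM in WT and 30.5% in cKO, close to Cdc42ep4 with 31.0% and 33.0%.

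Effectors of Cdc42 and Rac gave 0 calls among 13 measured genes (median 0.01). Cdc42se1 had the lowest ratio of those other than the 10 genes, -0.28, and Cdc42bpb, a kinase that acts on myosin, the highest, 0.24. Mllt11 overlaps Cdc42se1 on the other strand with 15639 (WT) and 21795 (cKO) counts, beside 3004 and 3186 for Cdc42se1. Cdc42bpa was the most abundant by CPM (0.15). Effectors of Rhoa and non-muscle myosin gave 0 calls among 17 (median -0.02). Myh10, the heavy chain of myosin IIB, known to decline as oligodendrocytes begin to myelinate, was the most abundant by CPM, at 90.6 TPM in WT and 116 TPM in cKO (0.35, interval 0.30 to 0.39). Cit, for citron kinase, had the highest ratio, 0.46, and Myl12a the lowest, -0.43.

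Actb (ENSMUSG00000029580, chromosome 5, 142903115 to 142906754, minus strand) encodes beta-actin, the building block itself and a gene whose mRNA is carried into cell processes. It stood at 403 TPM in WT and 387 TPM in cKO (log2 ratio -0.12, interval -0.17 to -0.07). Gamma-actin (Actg1) was more abundant, at 1138 and 993 TPM, with a ratio of -0.25. Actb held 26.2% of the TPM of this pair in WT and 28.0% in cKO. Its main transcript Actb-201 held 96.4% and 95.4% of the Actb counts, with a ratio of -0.13. Of the actin isoform list 4 of 6 genes were measured and 0 called, and Acta2, of smooth muscle, had the highest ratio, 0.27.

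Genes that bind monomers or cap filaments gave 0 calls among 13 (median -0.11), with Tmod2 the most abundant by CPM (0.10), Tmsb4x, the X-linked gene of a monomer-holding peptide, at -0.27, and Twf2 at 0.26. Crosslinking and membrane linkage genes gave 0 among 21 (median 0.06), with Marcksl1 the most abundant by CPM (-0.07), Marcks at -0.25 and Coro1a at 0.27. Bola2 overlaps Coro1a on the other strand with 457 (WT) and 640 (cKO) counts, beside 1304 and 2018 for Coro1a. Over all lists, 139 genes other than the 10 were measured, 2 were called lower and 0 higher, or 1.44% against the 3.43% of all measured genes called lower. Their median was 0.02, with 65 below 0 and 74 above.

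**Figure D5:**
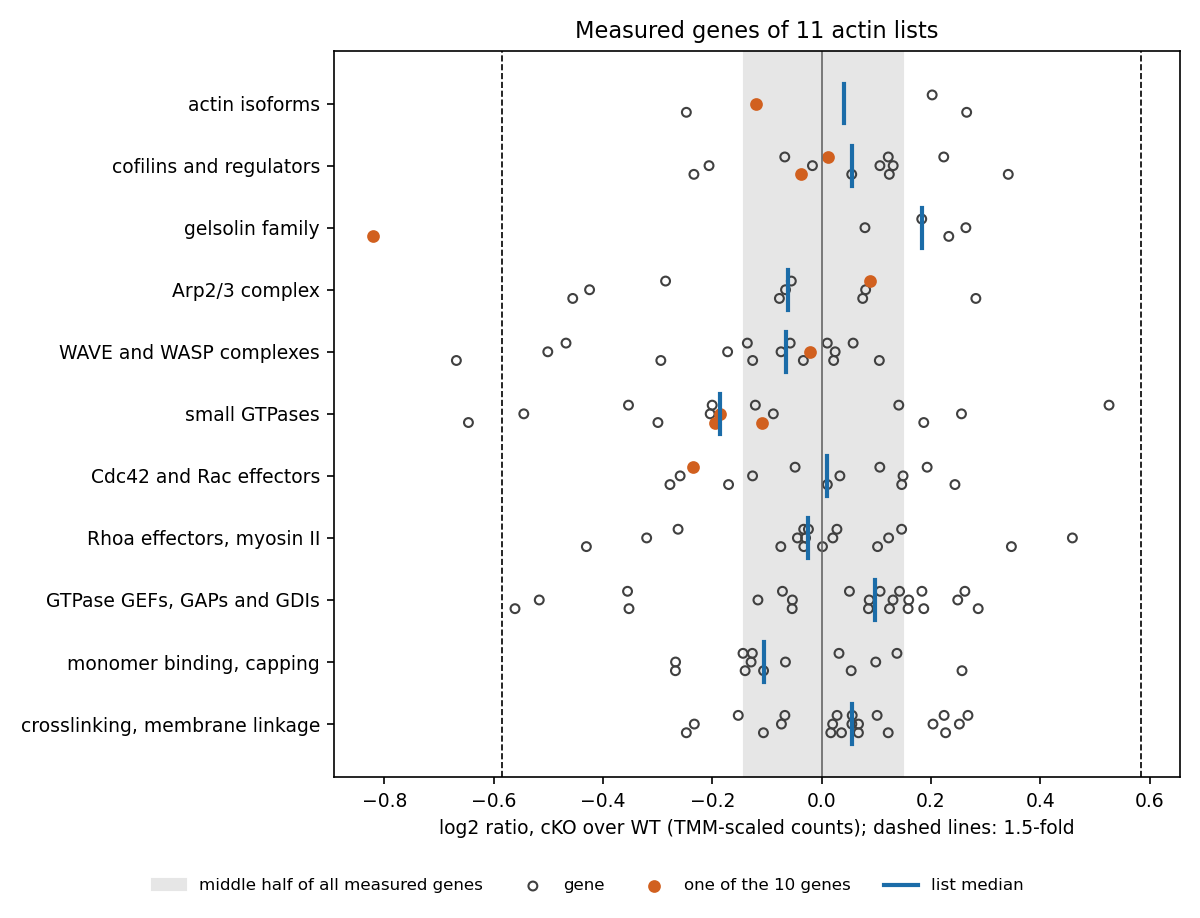
Log2 ratio of cKO over WT for each measured gene of 11 actin lists, 1 row per list, with the 10 genes as filled points, the list median as a bar, the quartiles of all measured genes in grey and dashed lines at 1.5-fold. Gsn, Abi2 and Rac2 are the points beyond the lower dashed line, and no point is beyond the upper.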

How the data were processed

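Per the labels' protocols, cord RNA was purified by Trizol before preparation of libraries by the VAHTS mRNA-seq kit. GRCm38.p6, CASAVA and Bowtie2 2.3.2 appear in the submitters' processing notes without roles. How reads were counted, and whether by strand, is not given in the sources used here. Per the file headers, estimated counts, TPM and FPKM were deposited by gene and by transcript for each library. The deposited counts are whole numbers. In 99.6% of transcripts in each library with 1 to 49 counts, the count was FPKM times length times a constant, rounded up, within 0.1. For genes with 1 transcript and up to 12 counts this unrounded value lay within 0.2 of an even number for 35.6% (WT) and 34.1% (cKO) and of an odd number for 17.7% and 18.7%. Intervals were therefore computed on fragments of 2 counts.

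Library sizes were scaled with TMM (edgeR 4.0.16, R 4.3.3); upper quartile and DESeq2 1.42.0 factors, library totals, deposited TPM plus 0.1 or 1, intervals with 1 count as 1 read, other filters and other folds were alternatives. Ratios and intervals (scipy 1.17.1, Python 3.11.15) were tested on simulated data. Coding sequences were searched against GENCODE M21 transcripts with BLAST 2.17.0 for other genes at 98% identity over 100 bases. Cfl1 had 1 such copy with counts, Gm6180, Rhoa 2, and the other 8 genes 0; in WT the copies had 9 and 14 counts. No significance test was run, since there is 1 library per group.

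The 10 genes, the 11 actin lists (156 genes, of which Pdxp and Cdc42ep5 were not found under these symbols) and the 9 marker lists were chosen with earlier results of these data known. Genes named from a list are the most abundant by CPM and those of lowest and highest ratio, and named transcripts hold at least 5% of the gene's counts in a library, except Arpc3-208 and, for its sequence, Cfl1-202. A marker gene that the rule takes is not reported here. Promoter windows were found in RefSeq for 8 of the 10 genes.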

Additional observations from a re-analysis of the deposited data

How the results depend on the processing

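Gsn kept its direction and its side of the 1.5-fold rule under every scaling, unit and interval tried, with log2 ratios from -0.82 to -0.78. At 2-fold, 0 of the 10 genes were called lower. On the authors' TPM, with either pseudocount, Cfl1 was at -0.0047, Cdc42 at -0.054, Actb at -0.058 and the median of the 10 genes at -0.056, above their values on counts. Cfl2 and Wasf1, whose intervals include 0, changed sign there, to -0.01 and 0.01. The median of all measured genes was higher on that scale by 0.04. The cause was not tested. Of the recomputed ratios of the 10 genes, 8 left the counting interval of the ratio on counts and 62 did not. The 62 include settings that could not move a ratio. These were 1 count as 1 read and summing with exon-sharing genes, which had no counts for any of the 10. The 8 were those of Gsn, Cfl1, Cdc42 and Actb on TPM, and Gsn stayed past 1.5-fold. Which intervals include 0 also depended on the setting. That of Cfl1 included 0 with upper quartile scaling (-0.047 to 0.006). That of Arpc3 lay above 0 with 1 count as 1 read (0.013 to 0.163). Among the other pathway genes, the number called lower was 1 on TPM with a pseudocount of 0.1, 0 with a pseudocount of 1, 1 with a filter of 5 CPM (fewer genes tested), 12 at a log2 ratio of 0.32 in size and 0 at 2-fold. The number called higher was 1 on TPM with either pseudocount (Svil) and 4 at a log2 ratio of 0.32 in size.

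Shares depend on whether length is allowed for. By transcript TPM, Gsn-201 held 80.3% in WT and 78.2% in cKO, Cdc42-201 41.1% and 45.0%, and Rac1-202 52.4% and 50.2%. By counts, Cfl1 held 72.3% and 73.7% of its family and Wasf1 35.9% and 35.9% of its own. The direction between the libraries was the same on each scale for Gsn-201, Cdc42-201, Rac1-202 and Cfl1, and for Wasf1 it was not. As each scale is drawn from the same estimated counts, a shared direction is no separate check. No paired analysis was possible because each group has 1 library. For the same reason no library could be left out. Depth limits Cdc42ep2 most, the gene with the fewest counts. Intervals leave out PCR duplication and the spread between animals. Those of transcript shares also leave out the error of dividing reads between transcripts.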

Other observations

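Some genes of the actin lists that missed the 1.5-fold rule had ratios under those of the 10 genes other than Gsn. They were chosen after their values were seen, form no list of their own, and passed a log2 ratio of 0.32 in size, where 8.63% of the 139 other pathway genes were called lower beside 7.86% of all measured genes, and 2.88% higher beside 6.2%. Abi1, which encodes a WAVE complex subunit, stood at 69.8 TPM in WT and 51.5 TPM in cKO (log2 ratio -0.50, interval -0.60 to -0.41). Arpc1b, for an Arp2/3 subunit, stood at 87.8 and 68.6 TPM (-0.42, -0.52 to -0.33). On the other strand, Pdap1 overlaps Arpc1b with 3671 (WT) and 4209 (cKO) counts, beside 3840 and 3678 for Arpc1b. Pdss1 overlaps Abi1 in the same way with 550 and 627 counts, and the strand setting of the counting is not given. Wipf1, for a partner of the WASP proteins, was at -0.47, and Rhog, for a GTPase that acts upstream of Rac1, at -0.54 (73.1 and 51.6 TPM). Arhgef2, for a microtubule-bound activator of RhoA, was at -0.52. Arhgdib and Rhou were at -0.35 and -0.35. Arpc3 and Wasf1, which belong to the same complexes as Arpc1b and Abi1, were at 0.09 and -0.02. The medians of the Arp2/3 list and of the WAVE and WASP list were -0.06 and -0.07. These differences have no replicate check.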
